A study of Mus musculus with 12 samples.

Results

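The genes described here make cholesterol and fatty acids, control that synthesis, or move cholesterol out of lysosomes and out of the cell. They are 36 genes taken by symbol from a table of 25230 mouse genes measured in macrophages with and without the channel gene Piezo1. All 36 were found, and 35 reached 1 TPM (a share of the library's transcripts, set per transcript length) in at least 3 of 12 libraries and were tested, among 11280 genes tested in all. The exception was Scd1, a stearoyl-CoA desaturase gene, with 0.0638 to 0.331 TPM and 3 to 18 reads per library. Its close paralog Scd2 was tested, and the treatment of reads that both genes could give was not given in the sources used here.

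Cholesterol synthesis is driven by SREBP-2, made from Srebf2, and fatty acid synthesis largely by SREBP-1, made from Srebf1. Both factors are held in the endoplasmic reticulum by Scap and the Insig proteins when sterol is plentiful, and are released and cut when it is scarce. LXR receptors, made from Nr1h3 and Nr1h2, are nuclear receptors that bind oxysterols, pair with RXR and turn on genes of cholesterol export, among them Abca1 and Abcg1. Macrophages take up much membrane and lipoprotein cholesterol, and both arms are active in them.

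Polyadenylated RNA was sequenced from bone marrow derived macrophages of mice, grown from femur and tibia marrow with M-CSF. The 12 libraries form 4 groups of 3, namely wild type with PBS, wild type with Candida albicans, Piezo1 KO with PBS and Piezo1 KO with Candida albicans. Piezo1 is a mechanically gated cation channel, and Candida albicans is a yeast that can switch to a hyphal form. The fungal dose, the time of exposure, the strain and age of the mice and the way the knockout was made were not given in the sources used here. In GEO's labels the knockout PBS group is DMSO by title and PBS by treatment. A difference in vehicle therefore cannot be told apart from the knockout effect with PBS or from the response in the knockout. The same holds for the difference between the responses of the genotypes (the interaction), which also uses that group. Nothing states that the libraries of a group came from separate animals, so p-values measure only the spread between libraries, which may be technical.

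Recovered reads per library ranged from 16399881 to 25740743, and tested members had at least 91 reads in every library. Piezo1 itself (chr8:122481698-122551329) stood at 134.6 ± 4.69 TPM (SD, n = 3) in wild-type PBS and 65.4 ± 2.72 in knockout PBS, and at 136.9 ± 8.68 and 64.9 ± 0.756 with C. albicans, so transcript reads remained in the knockout. All 8 macrophage markers listed (Adgre1, Itgam, Csf1r, Cd68, Mertk, Lyz2, Fcgr1 and Mrc1) exceeded 1 TPM. Markers of neutrophils summed to at most 8.07 TPM in any library, with 2 of 6 at 0 throughout, and those of 6 other cell types to at most 4.03. Replicate 1 of wild type with C. albicans was unlike its replicates, where a chi-square of recovered reads over its degrees of freedom reached 17.02 and 15.96, against 1.49 to 4.75 for all other replicate pairs.

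Of the 35 members, 5 rose and 14 fell with C. albicans in wild type, by limma on log2(TPM + 1) at an adjusted p under 0.05. Over all genes tested, 16.1% rose and 28.3% fell, so the share of members that rose was close to the background and the share that fell somewhat above it, a difference that was not tested. Their median log2 fold change was -0.11, beside -0.071 over all genes. Insig1, Sqle, Nr1h3, Msmo1 and Abca1 rose. In the knockout, 1 of 35 members rose, which was Insig1, and none fell, although 9 had an unadjusted p under 0.05. The background there was 3.95% rising and 3.15% falling, and 2657 of all 11280 genes had an unadjusted p under 0.05, a share near that of the members. Without wild-type C. albicans replicate 1, 2 members rose and 3 fell in the knockout, against 663 and 824 of all 11280 genes.

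The knockout effect was read separately with each treatment, in groups that share no library. With PBS, 2 members were higher and 10 lower in the knockout, against a background of 6.14% higher and 26.2% lower. With C. albicans, 5 were higher and 11 lower, against 12.4% and 27.5%. The members' shares lay near these backgrounds. Abca1, Nr1h3, Srebf2, Acly, Insig1, Insig2 and Npc1 were lower in the knockout with both treatments. The interaction takes the knockout's response and subtracts that of wild type. It passed for 2 members in the positive direction (Dhcr7 and Npc2) and 2 in the negative (Sqle and Msmo1), against 7.53% and 6.33% of all genes. It passed for 7 and 2 members without wild-type C. albicans replicate 1, and then for 1473 and 1059 of all 11280 genes.

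Scaling libraries by their median ratio shifted the balance of calls. The response in wild type then gave 7 higher and 9 lower, the knockout effect 5 and 7 with PBS and 8 and 10 with C. albicans, and the interaction 0 and 2. Upper-quartile scaling gave 4 and 7 for the knockout effect with PBS and 9 and 10 with C. albicans. The calls over all 11280 genes shifted too. Median-ratio scaling gave 2560 higher and 2091 lower for the response in wild type, and 668 and 938 for the interaction. For the knockout effect it gave 1577 and 1608 with PBS and 2158 and 2463 with C. albicans. Upper-quartile scaling gave 1294 and 1853, then 2468 and 2245, for the same 2 comparisons. TPM are shares of a library, and the macrophage marker Lyz2 alone averaged 19698 TPM in wild-type PBS and 9099 in knockout PBS. The 8 markers summed to 25250 to 25850 TPM per library in wild-type PBS, 21170 to 22300 in wild-type C. albicans, 14860 to 15120 in knockout PBS and 15230 to 15380 in knockout C. albicans. Leaving out Lyz2, the other 7 summed to 5834 to 5893 TPM in wild-type PBS, 5512 to 5706 in wild-type C. albicans, 5852 to 5917 in knockout PBS and 5820 to 5956 in knockout C. albicans. Of the 8 markers, 6 fell and none rose with C. albicans in wild type, and 1 was higher and 5 lower in the knockout with PBS. With C. albicans, 3 were higher and 4 lower in the knockout. The part of these shifts in the members' values was not tested, and in bulk RNA fewer cells of a type cannot be told apart from less RNA per cell.

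**Figure D1:**
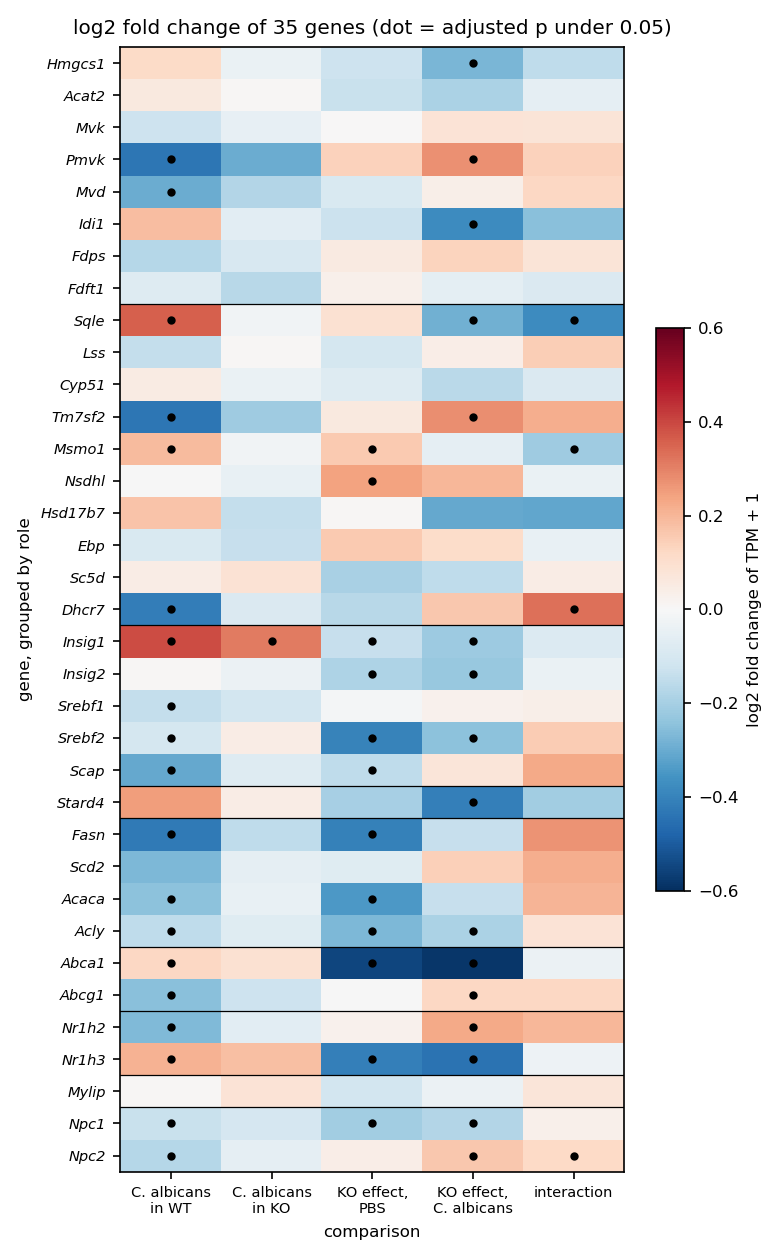
Log2 fold change of TPM + 1 for the 35 tested genes, grouped by role in rows, in 5 comparisons in columns. The interaction is the knockout's response less that of wild type. Red is higher and blue lower in the first-named state, and a dot marks an adjusted p under 0.05. Abca1, Nr1h3 and Srebf2 are blue with a dot in both knockout columns, and Insig1 is red with a dot in both response columns.

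Promoter windows from RefSeq (build GRCm38.p6, 250 bases before to 50 after the start) were found for 28 of the 36 members. An SRE-type element, searched as TCACNCCA on both strands, resembles the site that SREBP factors bind, and NF-Y is a common partner factor that binds CCAAT. The SRE-type letters lay in the windows of 3 members, Msmo1, Hmgcs1 and Srebf2, and in 4.97% of all genes with a window. CCAAT, read on either strand, lay in 16 of 17 SREBP targets with a window and in 41.1% of all genes. GGGCGG, the Sp1 core, lay in 16 of 17 SREBP targets and 38.2% of all genes, and CACGTG, the E-box, in 4 of 17 and 8.09%. Exact pairs of AGGTCA half-sites 4 bases apart lay in none of the 28 windows and in 0.0148% of all genes. Such pairs are the ideal form of the arrangement LXR and RXR bind, and sites with other letters were not searched. At so low a share a match in 28 windows could hardly be met, so the search cannot tell whether a window, that of Abca1 included, holds an LXR site. These matches describe letters, and no match says only that the letters are not in this window.

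The windows of 5 genes are shown. Msmo1, Hmgcs1 and Srebf2 are the 3 members with an SRE-type match, Insig1 was the only member called in the response of both genotypes, and Abca1 had the lowest knockout log2 fold changes among members. Capitals mark the SRE-type element, CCAAT or its complement ATTGG, and CACGTG, none of which overlap in these windows. Positions are Msmo1 chr8:64733529-64733828 on the minus strand, Hmgcs1 chr13:119690101-119690400, Srebf2 chr15:82147019-82147318 and Insig1 chr5:28071162-28071461 on the plus strand, and Abca1 chr4:53159846-53160145 on the minus strand, each printed 5′ to 3′ along the gene.
Msmo1: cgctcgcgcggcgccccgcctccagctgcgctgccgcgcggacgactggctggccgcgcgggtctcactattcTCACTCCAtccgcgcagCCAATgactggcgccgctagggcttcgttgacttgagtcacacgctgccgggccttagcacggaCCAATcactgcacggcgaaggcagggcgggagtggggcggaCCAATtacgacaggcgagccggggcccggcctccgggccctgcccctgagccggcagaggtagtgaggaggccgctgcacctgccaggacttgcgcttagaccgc
Hmgcs1: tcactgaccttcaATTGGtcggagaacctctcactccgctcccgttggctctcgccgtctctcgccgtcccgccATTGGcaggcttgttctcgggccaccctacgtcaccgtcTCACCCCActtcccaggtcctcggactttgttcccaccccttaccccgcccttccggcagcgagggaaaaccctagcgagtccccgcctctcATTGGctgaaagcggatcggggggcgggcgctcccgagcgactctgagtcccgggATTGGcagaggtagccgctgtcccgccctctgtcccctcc
Srebf2: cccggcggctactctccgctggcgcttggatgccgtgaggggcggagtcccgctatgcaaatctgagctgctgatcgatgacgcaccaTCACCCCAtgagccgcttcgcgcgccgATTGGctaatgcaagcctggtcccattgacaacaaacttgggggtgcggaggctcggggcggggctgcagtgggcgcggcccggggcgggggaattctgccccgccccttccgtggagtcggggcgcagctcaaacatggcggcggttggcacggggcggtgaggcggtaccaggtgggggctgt
Insig1: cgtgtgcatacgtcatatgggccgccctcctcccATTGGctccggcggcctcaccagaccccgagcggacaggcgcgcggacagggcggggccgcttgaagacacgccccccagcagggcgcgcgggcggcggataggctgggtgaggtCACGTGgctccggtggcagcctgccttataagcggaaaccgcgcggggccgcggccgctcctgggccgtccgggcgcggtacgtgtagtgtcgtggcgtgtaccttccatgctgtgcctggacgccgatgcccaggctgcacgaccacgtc
Abca1: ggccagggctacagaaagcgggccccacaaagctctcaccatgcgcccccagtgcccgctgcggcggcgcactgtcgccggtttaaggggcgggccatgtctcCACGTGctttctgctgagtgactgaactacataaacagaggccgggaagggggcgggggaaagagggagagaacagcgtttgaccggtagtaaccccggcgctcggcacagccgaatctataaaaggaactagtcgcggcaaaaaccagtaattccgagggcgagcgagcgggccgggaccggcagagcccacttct
The first base of the SRE-type match lay 177 bases before the start of Msmo1, 137 before that of Hmgcs1 and 162 before that of Srebf2. The nearest CCAAT or ATTGG lay with its first base 160, 176 and 135 bases before the same starts. The windows of Insig1 and Abca1 held a CACGTG and no SRE-type match.

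Insig1 (gene ID 231070, chr5:28071412-28078662) encodes the membrane protein that retains the Scap and SREBP complex in the endoplasmic reticulum, and is itself a SREBP target. Its values were 41.5, 40.7 and 38.7 TPM with PBS and 52.5, 52.3 and 54.7 with C. albicans in wild type, against 34.98, 38.5 and 36.2 with PBS and 45.5, 44.4 and 46.6 with C. albicans in Piezo1 knockout libraries. Both fungus groups lay above both PBS groups without overlap. In wild type it rose to 132% of its PBS level (log2 fold change 0.39, SE 0.046, adjusted p = 2.48e-05). In the knockout it rose to 124% (log2 fold change 0.31, SE 0.046, adjusted p = 9.50e-04), and the difference between these responses did not pass (difference in log2 response -0.082, SE 0.065, adjusted p = 0.448). Insig1 was the only member called in the response of both genotypes, and both calls held under all 21 alternatives. It was lower in the knockout with C. albicans (log2 fold change -0.22, SE 0.046, adjusted p = 0.00217) and with PBS (log2 fold change -0.14, SE 0.046, adjusted p = 0.0368). The PBS call was lost with median-ratio scaling (adjusted p = 0.550), upper-quartile scaling (adjusted p = 0.357) and only the groups compared (adjusted p = 0.0735). It was also lost without wild-type PBS replicate 1 or 2, knockout PBS replicate 1 or 3 or knockout C. albicans replicate 1 (adjusted p 0.0510 to 0.142).

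Srebf2 (chr15:82147269-82205379) encodes SREBP-2, the factor that drives sterol synthesis genes. It stood at 48.7, 48.6 and 49.9 TPM in the wild-type PBS libraries, 46.02, 44.8 and 45.7 in wild type with C. albicans, 36.8, 36.1 and 37.98 in the knockout with PBS and 37.4, 37.4 and 39.8 in the knockout with C. albicans. All 6 knockout libraries lay below all 6 wild-type libraries. Its level in the knockout was 75.4% of wild type with PBS (log2 fold change -0.40, SE 0.040, adjusted p = 2.19e-05) and 83.99% with C. albicans (log2 fold change -0.25, SE 0.040, adjusted p = 3.70e-04), calls that held under all 21 alternatives. The smaller fall with C. albicans in wild type (log2 fold change -0.11, SE 0.040, adjusted p = 0.0460) was lost without wild-type PBS replicate 1, 2 or 3, wild-type C. albicans replicate 2 or 3, knockout PBS replicate 1 or 3 or knockout C. albicans replicate 1 or 2 (adjusted p 0.0519 to 0.134). Median-ratio scaling reduced it to -0.029 (adjusted p = 0.571), and it was also lost with upper-quartile scaling (adjusted p = 0.0611) and with only the groups compared (adjusted p = 0.0935). That fall became a rise of 0.030 once a trend with gene length and GC content was removed (adjusted p = 0.516).

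Scap (chr9:110333288-110384949), the escort protein of SREBP, measured 37.1, 38.3 and 40.7 TPM with PBS and 32.98, 29.7 and 30.8 with C. albicans in wild type, against 34.4, 33.7 and 35.8 with PBS and 32.1, 34.2 and 31.95 with C. albicans in Piezo1 knockout libraries. It fell with C. albicans in wild type (log2 fold change -0.30, SE 0.053, adjusted p = 5.42e-04) under all 21 alternatives. It was lower in the knockout with PBS (log2 fold change -0.15, SE 0.053, adjusted p = 0.0405). That call was lost with median-ratio scaling (adjusted p = 0.404), upper-quartile scaling (adjusted p = 0.228), no filter (adjusted p = 0.0509) and no variance trend (adjusted p = 0.0505). It was also lost without wild-type PBS replicate 2 or 3, wild-type C. albicans replicate 3, knockout PBS replicate 1 or 2 or knockout C. albicans replicate 1 or 3 (adjusted p 0.0508 to 0.130). The Scap interaction passed without wild-type C. albicans replicate 1, at 0.27 (adjusted p = 0.0166). Insig2 (chr1:121304353-121332662), the second retention protein, showed 26.1, 24.6 and 25.1 TPM in the wild-type PBS libraries, 23.5, 27.1 and 25.6 in wild type with C. albicans, 22.6, 22.1 and 21.7 in the knockout with PBS and 22.5, 22.2 and 20 in the knockout with C. albicans. The knockout libraries lay below the wild-type libraries within each treatment. With PBS the knockout was lower (log2 fold change -0.18, SE 0.060, adjusted p = 0.0325), and so it was with C. albicans (log2 fold change -0.23, SE 0.060, adjusted p = 0.00936). Median-ratio scaling ended both calls (adjusted p = 0.316 and 0.0511), as did upper-quartile scaling (adjusted p = 0.2085 and 0.07945). The PBS call also ended without wild-type PBS replicate 1, 2 or 3 or knockout PBS replicate 1, 2 or 3 (adjusted p 0.0514 to 0.104). Srebf1 (chr11:60199084-60224186), the gene of SREBP-1 and an LXR target, read 39.2, 37.4 and 39.97 TPM with PBS and 37.6, 32.7 and 35.1 with C. albicans in wild type, against 38.2, 37.96 and 39.5 with PBS and 36.3, 35.3 and 35.5 with C. albicans in Piezo1 knockout libraries. The groups of wild type overlapped, and the fall with C. albicans (log2 fold change -0.14, SE 0.050, adjusted p = 0.0336) was lost with median-ratio scaling (adjusted p = 0.267), with the length and GC trend removed (adjusted p = 0.930) and without wild-type PBS replicate 1 or 3 or wild-type C. albicans replicate 2 or 3 (adjusted p 0.0756 to 0.155).

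Within the SREBP control group of 5 genes, 4 were lower in the knockout with PBS and 3 with C. albicans, and none was higher in either. Over all genes 26.2% and 27.5% were lower. With PBS, 1 was lower after median-ratio or upper-quartile scaling, and with C. albicans upper-quartile scaling left 2 lower and made 1 higher. Of all 11280 genes, 1608 and 1853 were lower with PBS under these scalings. With C. albicans, upper-quartile scaling gave 2468 higher and 2245 lower. Among the 5 control genes Srebf1 had the smallest knockout log2 fold changes, -0.013 (adjusted p = 0.879) and 0.024 (adjusted p = 0.743).

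**Figure D2:**
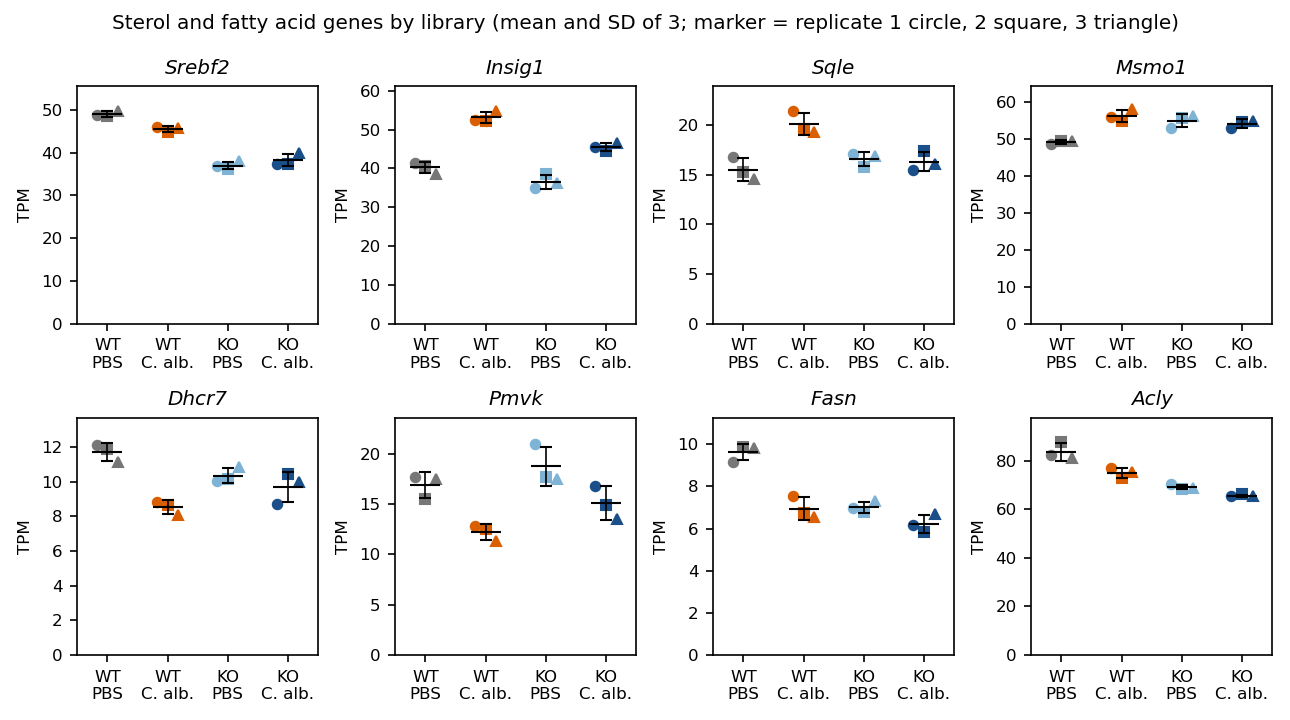
TPM of 8 sterol and fatty acid genes in each of the 12 libraries, on axes from 0, with the mean and SD of 3 libraries as bars. Insig1 is above its PBS level with C. albicans in both genotypes, Sqle is highest in wild-type C. albicans, and Srebf2 and Acly lie lower in all knockout libraries than in wild type.

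The 8 genes of the mevalonate steps, which carry acetyl-CoA to squalene, moved in both directions. Of these, 2 fell with C. albicans in wild type, and 1 was higher and 2 lower in the knockout with C. albicans, where 12.4% of all genes were higher and 27.5% lower. Hmgcs1 (chr13:119690351-119708260), which makes HMG-CoA in the cytosol, was measured at 23.4, 23.5 and 23.3 TPM in the wild-type PBS libraries, 24.9, 24.7 and 26.5 in wild type with C. albicans, 21.6, 20.3 and 22.3 in the knockout with PBS and 21.7, 19.99 and 20.7 in the knockout with C. albicans. With the fungus, its knockout libraries lay below those of wild type, at 81.9% (log2 fold change -0.28, SE 0.051, adjusted p = 9.64e-04), under all 21 alternatives. Its rise in wild type did not pass (log2 fold change 0.11, SE 0.051, adjusted p = 0.0897), although those groups did not overlap, and it passed with median-ratio scaling (adjusted p = 0.0104). Idi1 (chr13:8885606-8892396), the isomerase of isopentenyl diphosphate, had 4.42, 4.55 and 4.77 TPM with PBS and 5.48, 6.2 and 4.47 with C. albicans in wild type, against 4.397, 3.66 and 4.27 with PBS and 4.27, 3.91 and 3.48 with C. albicans in Piezo1 knockout libraries. It too was lower in the knockout with C. albicans (log2 fold change -0.38, SE 0.11, adjusted p = 0.0144). That call was lost without wild-type C. albicans replicate 2 (adjusted p = 0.0724) or knockout C. albicans replicate 3 (adjusted p = 0.0613).

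Pmvk (chr3:89454541-89469014), phosphomevalonate kinase, went the other way. Its libraries read 17.7, 15.5 and 17.5 TPM in the wild-type PBS libraries, 12.9, 12.5 and 11.3 in wild type with C. albicans, 20.97, 17.7 and 17.5 in the knockout with PBS and 16.8, 14.9 and 13.5 in the knockout with C. albicans. It fell with C. albicans in wild type to 72.4% (log2 fold change -0.43, SE 0.090, adjusted p = 0.00194), under all 21 alternatives. With C. albicans it was higher in the knockout (log2 fold change 0.28, SE 0.090, adjusted p = 0.0273), a comparison that shares the wild-type C. albicans libraries with the fall. That call was lost with the length and GC trend removed (adjusted p = 0.431), and without wild-type C. albicans replicate 3 or knockout C. albicans replicate 1 or 2 (adjusted p 0.0582 to 0.123). Without wild-type C. albicans replicate 1 its fall in the knockout, -0.30, passed (adjusted p = 0.0481, against 0.0677 with it). Mvd (chr8:122433596-122443422), mevalonate diphosphate decarboxylase, was at 17.2, 16.8 and 19.04 TPM with PBS and 13.7, 14.5 and 14.2 with C. albicans in wild type, against 18.4, 14.7 and 16.5 with PBS and 13.5, 15.5 and 14.7 with C. albicans in Piezo1 knockout libraries. It fell in wild type to 80.1% (log2 fold change -0.30, SE 0.080, adjusted p = 0.00861), but not past the threshold with the length and GC trend removed (adjusted p = 0.0815). Acat2, Mvk, Fdps and Fdft1, which complete these steps, passed in no comparison, with log2 fold changes from -0.19 (Acat2, knockout effect with C. albicans) to 0.13 (Fdps, the same comparison).

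The 10 genes of the steps after squalene held 3 of the 4 members called in the interaction. Sqle and Msmo1 passed in the negative direction, as did 6.33% of all genes, and Dhcr7 in the positive, as did 7.53%. Sqle (chr15:59315092-59331193), squalene epoxidase, is a rate-controlling enzyme of these steps. It read 16.8, 15.2 and 14.5 TPM in the wild-type PBS libraries, 21.4, 19.6 and 19.3 in wild type with C. albicans, 17.1, 15.8 and 16.8 in the knockout with PBS and 15.5, 17.4 and 16.1 in the knockout with C. albicans. The 3 wild-type C. albicans libraries lay above the 9 others. Sqle rose to 129.8% in wild type (log2 fold change 0.36, SE 0.066, adjusted p = 9.01e-04), while in the knockout its level with C. albicans was 98.5% of PBS (log2 fold change -0.022, SE 0.066, adjusted p = 0.886). The interaction was -0.38 in log2 (SE 0.094, adjusted p = 0.0190), and Sqle was lower in the knockout with C. albicans (log2 fold change -0.29, SE 0.066, adjusted p = 0.00419). The interaction fell just short without knockout PBS replicate 1 (adjusted p = 0.0529) or knockout C. albicans replicate 1 (adjusted p = 0.0519).

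Msmo1 (chr8:64718123-64733578), the methylsterol oxidase, had the highest mean of the sterol synthesis enzymes in wild-type PBS, within the spread of Ebp. Its libraries gave 48.7, 49.5 and 49.5 TPM with PBS and 55.95, 54.9 and 58.1 with C. albicans in wild type, against 53.1, 55.6 and 56.4 with PBS and 52.9, 54.6 and 55.03 with C. albicans in Piezo1 knockout libraries. The wild-type PBS libraries lay below all 9 others. It rose with C. albicans in wild type to 114% (log2 fold change 0.19, SE 0.039, adjusted p = 0.00170), and was higher in the knockout with PBS (log2 fold change 0.16, SE 0.039, adjusted p = 0.00814), which uses the same wild-type PBS libraries. The interaction was negative (difference in log2 response -0.21, SE 0.055, adjusted p = 0.0236). With the length and GC trend removed, the PBS difference and the interaction missed the threshold (adjusted p = 0.164 and 0.0870). The interaction also missed it without wild-type C. albicans replicate 3, knockout PBS replicate 3 or knockout C. albicans replicate 1 (adjusted p 0.0586 to 0.0633).

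Dhcr7 (chr7:143823167-143848410), a reductase that acts at the end of cholesterol synthesis, fell. Its values were 12.1, 11.9 and 11.1 TPM in the wild-type PBS libraries, 8.85, 8.68 and 8.096 in wild type with C. albicans, 10.05, 10.2 and 10.8 in the knockout with PBS and 8.73, 10.4 and 9.96 in the knockout with C. albicans. In wild type the C. albicans libraries lay below the PBS libraries, at 72.9% (log2 fold change -0.41, SE 0.071, adjusted p = 5.08e-04), under all 21 alternatives. In the knockout the groups overlapped (log2 fold change -0.087, SE 0.071, adjusted p = 0.508). The interaction was positive (difference in log2 response 0.33, SE 0.10, adjusted p = 0.0483), but it passed in only 7 of 20 alternatives and was lost without wild-type PBS replicate 1 or 2, wild-type C. albicans replicate 2 or 3, knockout PBS replicate 1, 2 or 3 or knockout C. albicans replicate 2 or 3 (adjusted p 0.0571 to 0.113). Tm7sf2 (chr19:6062821-6067850), a sterol reductase, measured 14.4, 16.1 and 15.6 TPM with PBS and 11.96, 11.3 and 10.1 with C. albicans in wild type, against 14.5, 16.2 and 17.4 with PBS and 12.5, 15.6 and 13.04 with C. albicans in Piezo1 knockout libraries. It fell in wild type to 72.4% (log2 fold change -0.43, SE 0.091, adjusted p = 0.00211), under all 21 alternatives. With C. albicans it was higher in the knockout (log2 fold change 0.28, SE 0.091, adjusted p = 0.0285), a call lost with the length and GC trend removed (adjusted p = 0.222) and without wild-type C. albicans replicate 2 or 3 or knockout C. albicans replicate 2 (adjusted p 0.0551 to 0.130). Nsdhl (chrX:72918521-72958528), a sterol dehydrogenase, showed 12.7, 14.9 and 12.4 TPM in the wild-type PBS libraries, 14.5, 13.4 and 12.1 in wild type with C. albicans, 15.2, 16.7 and 15.9 in the knockout with PBS and 14.7, 15.7 and 15.9 in the knockout with C. albicans. It was higher in the knockout with PBS (log2 fold change 0.24, SE 0.080, adjusted p = 0.0345), but not with the length and GC trend removed (adjusted p = 0.0841) or without wild-type PBS replicate 1 or 3 or knockout PBS replicate 2 or 3 (adjusted p 0.0790 to 0.114). Without wild-type C. albicans replicate 1, Nsdhl was also higher in the knockout with C. albicans (0.26, adjusted p = 0.0235). Lss, Cyp51, Hsd17b7, Ebp and Sc5d, which build and rework the sterol rings, passed in no comparison. Their log2 fold changes ran from -0.31 (Hsd17b7, interaction) to 0.17 (Hsd17b7, response in wild type). Some passed under alternatives. Ebp was higher in the knockout with PBS after median-ratio scaling (adjusted p = 0.00504) or without wild-type C. albicans replicate 1 (adjusted p = 0.0435), among others. Sc5d was lower there with the length and GC trend removed (adjusted p = 0.0246) or without wild-type PBS replicate 3 (adjusted p = 0.0230). Hsd17b7 was lower in the knockout with C. albicans with no variance trend, or without knockout PBS replicate 2 or knockout C. albicans replicate 1 (adjusted p 0.0255 to 0.0476).

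Stard4, a cytosolic sterol carrier and SREBP target, was low throughout. It read 3.38, 4.06 and 3.59 TPM with PBS and 3.89, 4.94 and 4.93 with C. albicans in wild type, against 3.39, 2.89 and 2.93 with PBS and 2.75, 3.501 and 3.35 with C. albicans in Piezo1 knockout libraries. With C. albicans its knockout libraries lay below those of wild type (log2 fold change -0.41, SE 0.11, adjusted p = 0.0112). The call was lost without knockout C. albicans replicate 1 (adjusted p = 0.0537) and with the length and GC trend removed (adjusted p = 0.105). Its rise in wild type passed only with median-ratio scaling (adjusted p = 0.0413) or without wild-type C. albicans replicate 1 (adjusted p = 0.0238).

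Of the 4 fatty acid genes tested, 3 fell with C. albicans in wild type, 3 were lower in the knockout with PBS, and none was higher in either, against 28.3% of all genes falling and 26.2% lower. Median-ratio scaling left 1 fall in the wild-type response and 3 in the knockout effect, against 2091 and 1608 of all 11280 genes. The comparisons share the wild-type PBS libraries. Fasn (chr11:120805958-120825166), fatty acid synthase, stood at 9.17, 9.88 and 9.85 TPM in the wild-type PBS libraries, 7.56, 6.74 and 6.54 in wild type with C. albicans, 6.98, 6.77 and 7.29 in the knockout with PBS and 6.17, 5.82 and 6.68 in the knockout with C. albicans. The wild-type PBS libraries lay above all 9 others. Fasn fell to 72.1% with C. albicans in wild type (log2 fold change -0.42, SE 0.074, adjusted p = 5.67e-04) and was at 72.8% of wild type in the knockout with PBS (log2 fold change -0.41, SE 0.074, adjusted p = 0.00118), under all 21 alternatives each. The knockout difference was reduced to -0.22 with the length and GC trend removed (adjusted p = 0.0248). The interaction, 0.27, did not pass (adjusted p = 0.106), although without wild-type C. albicans replicate 1 it did, at 0.33 (adjusted p = 0.0365).

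Acly (chr11:100476352-100528000), which makes cytosolic acetyl-CoA from citrate for both pathways, had the highest level of the synthesis genes. Its libraries read 82.3, 87.8 and 80.9 TPM with PBS and 76.9, 72.98 and 75.4 with C. albicans in wild type, against 70.3, 68.5 and 68.8 with PBS and 65.5, 66.2 and 65.3 with C. albicans in Piezo1 knockout libraries. All 6 knockout libraries lay below all 6 wild-type libraries. The knockout level was 82.7% of wild type with PBS (log2 fold change -0.27, SE 0.038, adjusted p = 2.39e-04) and 87.5% with C. albicans (log2 fold change -0.19, SE 0.038, adjusted p = 0.00172), under all 21 alternatives. Its fall with C. albicans in wild type (log2 fold change -0.15, SE 0.038, adjusted p = 0.00596) was lost with median-ratio scaling (adjusted p = 0.0976) and with the length and GC trend removed (adjusted p = 0.124).

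Acaca (chr11:84129635-84401651), acetyl-CoA carboxylase, gave 8.79, 8.78 and 8.35 TPM in the wild-type PBS libraries, 7.79, 7.201 and 6.47 in wild type with C. albicans, 6.97, 5.92 and 6.97 in the knockout with PBS and 6.33, 6.56 and 6.25 in the knockout with C. albicans. It fell with C. albicans in wild type (log2 fold change -0.24, SE 0.080, adjusted p = 0.0246) and was lower in the knockout with PBS (log2 fold change -0.34, SE 0.080, adjusted p = 0.00578). The first call was lost with median-ratio scaling (adjusted p = 0.0760) and without wild-type PBS replicate 1 or 2 or wild-type C. albicans replicate 2 or 3 (adjusted p 0.0555 to 0.111), and the second with the length and GC trend removed (adjusted p = 0.133). Scd2 (chr19:44293676-44306864), a desaturase, passed in no comparison. It read 9.07, 8.599 and 8.8 TPM with PBS and 9.23, 6.13 and 6.398 with C. albicans in wild type, against 7.69, 9.28 and 8.14 with PBS and 8.4, 7.38 and 8.26 with C. albicans in Piezo1 knockout libraries, with wild-type C. albicans replicate 1 high in its group. Without that library it fell in wild type by 0.44 on the log2 scale (adjusted p = 0.00116), and its knockout effect with C. albicans and its interaction also passed (0.31 and 0.38, adjusted p = 0.0114 and 0.0308).

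LXR and export genes were the most abundant members. In wild-type PBS, 7 members averaged over 100 TPM: Npc2 (1424 ± 4.49, SD, n = 3), Npc1 (201 ± 0.688), Abca1 (182 ± 5.03), Nr1h3 (153 ± 9.002), Abcg1 (152 ± 3.11), Mylip (105 ± 0.711) and Nr1h2 (103 ± 7.05). In that order Nr1h3 and Abcg1 did not differ beyond their spread, and neither did Mylip and Nr1h2. The sterol synthesis enzymes lay between 3.12 ± 0.0702 TPM for Hsd17b7 and 49.3 ± 0.457 for Msmo1. Msmo1 and Ebp (48.4 ± 3.91) did not differ beyond their spread.

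Abca1 (chr4:53030789-53159988), the transporter that loads cholesterol onto apolipoproteins, is a classic LXR target. Its libraries read 185, 186 and 177 TPM in the wild-type PBS libraries, 213, 192 and 192 in wild type with C. albicans, 130.4, 118 and 125 in the knockout with PBS and 132, 131 and 133 in the knockout with C. albicans. All 6 knockout libraries lay below all 6 wild-type libraries. The knockout level was 68.1% of wild type with PBS (log2 fold change -0.55, SE 0.047, adjusted p = 5.95e-06) and 66.4% with C. albicans (log2 fold change -0.59, SE 0.047, adjusted p = 1.46e-06), under all 21 alternatives. Removing the length and GC trend reduced the log2 differences to -0.33 and -0.33 (adjusted p = 4.96e-05 and 2.16e-05). The rise with C. albicans in wild type (log2 fold change 0.12, SE 0.047, adjusted p = 0.0465) was lost without wild-type C. albicans replicate 1, the highest library of its group (0.075, adjusted p = 0.148). With 1 library left out, the rise was lost without wild-type PBS replicate 1, 2 or 3, wild-type C. albicans replicate 1, knockout PBS replicate 3 or knockout C. albicans replicate 1, 2 or 3 (adjusted p 0.0600 to 0.148). It was also lost with no filter, no variance trend, the length and GC trend removed or only the groups compared (adjusted p 0.0695 to 0.0934).

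Nr1h3 (chr2:91184061-91202829), which encodes LXR alpha, showed the same order of groups. It measured 145, 153 and 163 TPM with PBS and 162, 186 and 185 with C. albicans in wild type, against 113, 112 and 119 with PBS and 128, 131 and 132 with C. albicans in Piezo1 knockout libraries. Again all 6 knockout libraries lay below all 6 wild-type libraries. The knockout stood at 74.9% of wild type with PBS (log2 fold change -0.41, SE 0.055, adjusted p = 1.62e-04) and 73.3% with C. albicans (log2 fold change -0.44, SE 0.055, adjusted p = 5.14e-05), under all 21 alternatives. Nr1h3 rose with C. albicans in wild type (log2 fold change 0.21, SE 0.055, adjusted p = 0.00829), also under all 21. Its response in the knockout was similar in size, 0.18 (SE 0.055), and missed the threshold (adjusted p = 0.0712), but passed in 4 of 21 alternatives (adjusted p 0.00999 to 0.0360), among them without wild-type C. albicans replicate 1. The interaction was -0.031 (adjusted p = 0.837).

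Nr1h2 (chr7:44549616-44553968), which encodes LXR beta, differed from Nr1h3. Its values were 98.9, 99.8 and 111 TPM in the wild-type PBS libraries, 89.8, 84.6 and 83.1 in wild type with C. albicans, 106, 103 and 107 in the knockout with PBS and 96.2, 104 and 102 in the knockout with C. albicans. It fell with C. albicans in wild type to 83.02% (log2 fold change -0.26, SE 0.050, adjusted p = 0.00105), under all 21 alternatives. With C. albicans it was higher in the knockout (log2 fold change 0.23, SE 0.050, adjusted p = 0.00302), though not with the length and GC trend removed (adjusted p = 0.177). The interaction passed without wild-type C. albicans replicate 1, at 0.23 (adjusted p = 0.0297).

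Abcg1 (chr17:31057694-31117984), which exports cholesterol to lipoprotein particles, did not follow Abca1. It read 149, 153 and 155 TPM with PBS and 137, 124 and 122 with C. albicans in wild type, against 154, 147 and 155 with PBS and 139, 139 and 139 with C. albicans in Piezo1 knockout libraries. With PBS the genotypes overlapped (log2 fold change -0.0036, SE 0.042, adjusted p = 0.963). It fell with C. albicans in wild type to 83.96% (log2 fold change -0.25, SE 0.042, adjusted p = 4.11e-04), under all 21 alternatives. With C. albicans it was higher in the knockout (log2 fold change 0.12, SE 0.042, adjusted p = 0.0341), a call lost without wild-type C. albicans replicate 2 or 3 or knockout C. albicans replicate 1, 2 or 3 (adjusted p 0.0751 to 0.138). With the length and GC trend removed, the PBS difference became 0.11 (adjusted p = 0.0277). Without wild-type C. albicans replicate 1 the interaction also passed, at 0.18 (adjusted p = 0.0108), as did the fall in the knockout (adjusted p = 0.0132). Mylip (chr13:45389742-45411940), a ubiquitin ligase that marks lipoprotein receptors for degradation, passed in no comparison, though its knockout effect with PBS did without wild-type C. albicans replicate 1 (adjusted p = 0.0213). Its group means ran from 97.1 ± 1.46 TPM in knockout PBS to 105 ± 8.54 in wild-type C. albicans.

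Npc1 and Npc2 hand cholesterol from the lysosome lumen to its membrane. Npc1 stood at 201, 202 and 200.5 TPM in the wild-type PBS libraries, 197, 177 and 176 in wild type with C. albicans, 175, 169 and 177 in the knockout with PBS and 159, 161 and 166 in the knockout with C. albicans. It was lower in the knockout with PBS (log2 fold change -0.21, SE 0.041, adjusted p = 0.00203) and with C. albicans (log2 fold change -0.18, SE 0.041, adjusted p = 0.00420). With the length and GC trend removed, the second difference shrank to -0.046 (adjusted p = 0.360). It fell in wild type with C. albicans (log2 fold change -0.14, SE 0.041, adjusted p = 0.0173), but not with median-ratio scaling (adjusted p = 0.203) or without wild-type C. albicans replicate 2 or 3 (adjusted p 0.0724 and 0.0794), nor with only the groups compared in the fit (adjusted p = 0.0655). Without wild-type C. albicans replicate 1, Npc1 also fell in the knockout (-0.10, adjusted p = 0.0243). Npc2 (chr12:84754559-84773112), the soluble partner, read 1419, 1428 and 1424 TPM with PBS and 1302, 1239.6 and 1248 with C. albicans in wild type, against 1461, 1484 and 1452 with PBS and 1412, 1425 and 1402 with C. albicans in Piezo1 knockout libraries. The wild-type C. albicans libraries lay below the 9 others. Npc2 fell in wild type to 88.7% (log2 fold change -0.17, SE 0.024, adjusted p = 8.78e-05), and with C. albicans the knockout was higher (log2 fold change 0.16, SE 0.024, adjusted p = 1.61e-04), each under all 21 alternatives. With PBS it was higher in the knockout after median-ratio scaling (0.14, adjusted p = 7.23e-04), against 0.042 before it (adjusted p = 0.199). The interaction of 0.12 (SE 0.033, adjusted p = 0.0324) was lost with median-ratio scaling (adjusted p = 0.102) and without wild-type PBS replicate 1 or 2, wild-type C. albicans replicate 2 or 3, knockout PBS replicate 1 or 3 or knockout C. albicans replicate 1, 2 or 3 (adjusted p 0.0505 to 0.0826).

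**Figure D3:**
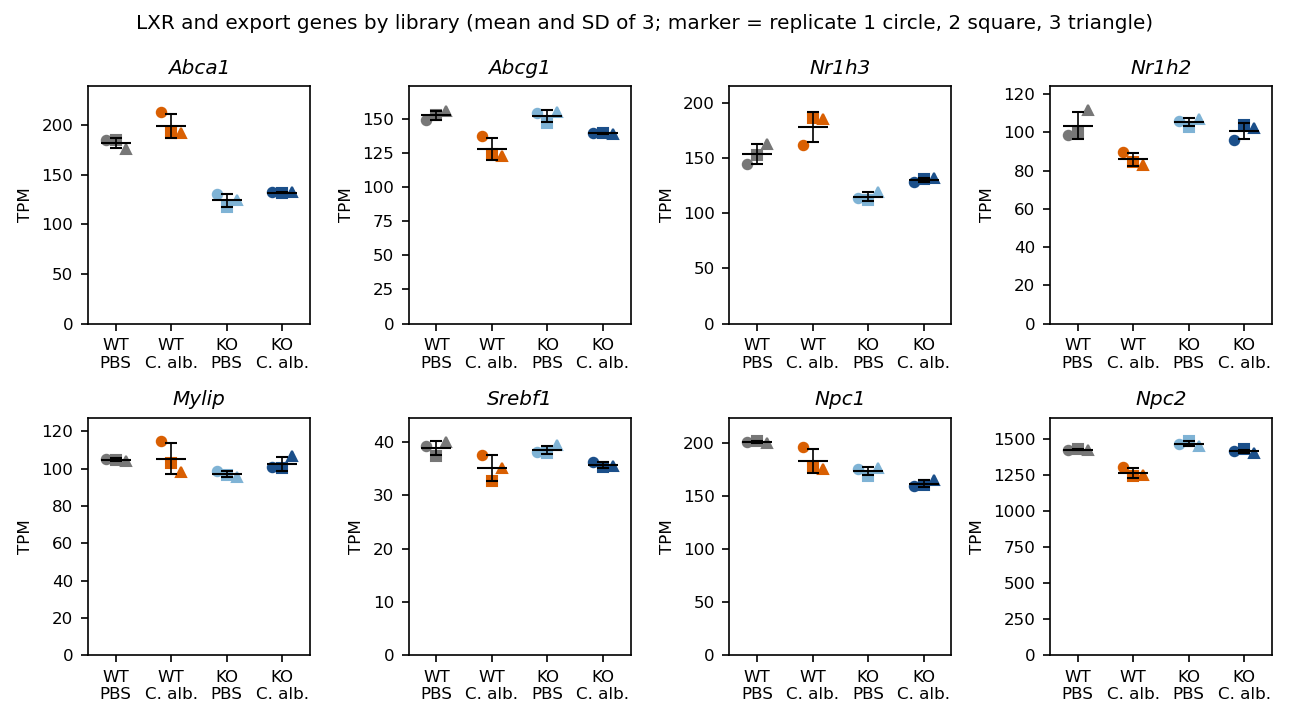
TPM of 8 LXR and cholesterol export genes in each of the 12 libraries, on axes from 0, with the mean and SD of 3 libraries as bars. Abca1 and Nr1h3 lie lower in all 6 knockout libraries than in all 6 wild-type libraries, while Abcg1 and Npc2 are lowest in wild-type C. albicans.

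**Figure D4:**
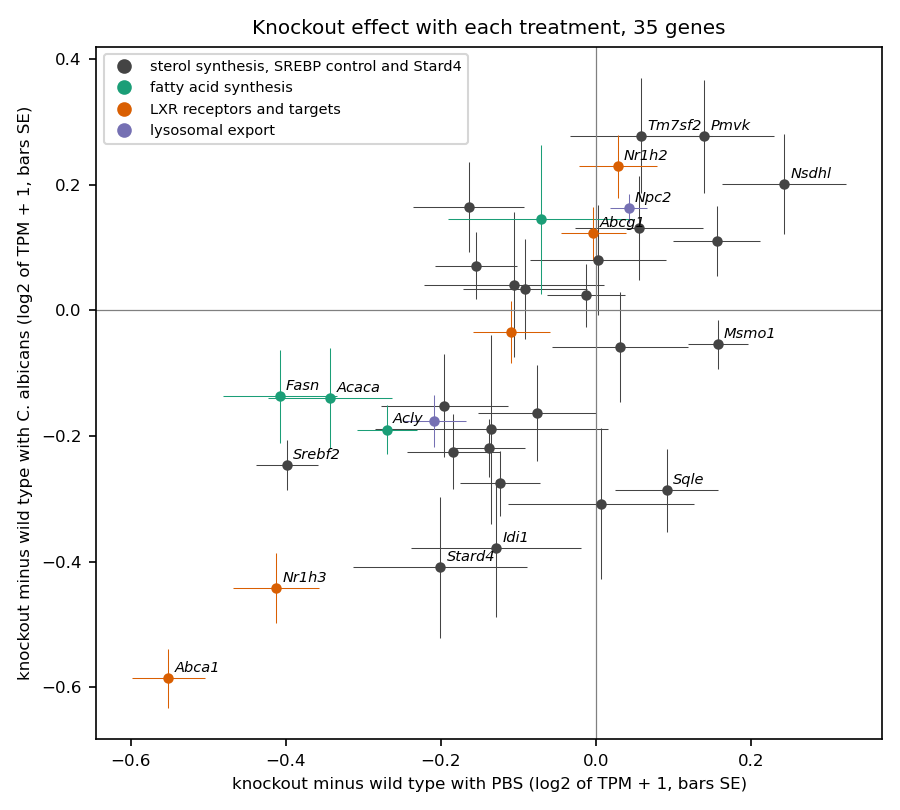
Knockout minus wild type in log2(TPM + 1) with PBS (horizontal) and with C. albicans (vertical) for the 35 tested genes, with bars of 1 SE and colours by role. The axes share no library. Abca1 and Nr1h3 lie lowest on both axes, and Fasn and Acaca passed with PBS and not with C. albicans, a difference between treatments that did not itself pass (interaction adjusted p = 0.106 and 0.271).

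To compare SREBP targets with LXR targets, 21 sterol genes driven by SREBP-2 were set beside 4 LXR targets (Abca1, Abcg1, Mylip and Srebf1). The LXR list is short and its genes moved in different directions, so its median says little of any member. With C. albicans in wild type, 3 SREBP targets rose and 5 fell with a median of -0.0031, and 1 LXR target rose and 2 fell with a median of -0.069, against 16.1% of all genes rising and 28.3% falling. Both medians rose above 0 with median-ratio scaling (0.070 and 0.0084), as did the median over all genes, from -0.071 to 0.0016. In the knockout, 1 SREBP target rose, with a median of -0.045. None of the LXR targets passed, with 1 at an unadjusted p under 0.05 and a median of -0.014. In that comparison 2657 of all 11280 genes had such a p, and 3.95% rose and 3.15% fell. The LXR median turned positive there with median-ratio (0.028) and upper-quartile scaling (0.0060), while the medians over all genes were 0.00085 and -0.019.

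With PBS, 2 SREBP targets were higher and 2 lower in the knockout (median -0.076), and 1 LXR target was lower (median -0.061). With C. albicans the counts were 2 higher and 6 lower for SREBP targets (median -0.059) and 1 higher and 1 lower for LXR targets (median -0.0057). Over all genes 6.14% were higher and 26.2% lower with PBS, and 12.4% and 27.5% with C. albicans. Median-ratio scaling turned the LXR medians positive with both treatments (0.035 and 0.054), and that of SREBP targets with PBS (0.011). With that scaling the medians over all genes were 0.0044 with PBS and 0.0052 with C. albicans. The 6 SREBP targets lower with C. albicans were Hmgcs1, Idi1, Sqle, Insig1, Srebf2 and Stard4, and the 2 higher were Pmvk and Tm7sf2. The LXR median minus the SREBP median was -0.066 for the response in wild type, 0.031 for that in the knockout, 0.015 and 0.053 for the knockout effect with PBS and with C. albicans, and 0.10 for the interaction. The spread of the difference between the lists among libraries of a group was 0.052 (pooled SD).

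By library, the mean centred log2(TPM + 1) of SREBP targets ran from 0.019 to 0.067 in wild-type PBS, from -0.0088 to 0.030 in wild-type C. albicans, from -0.026 to 0.017 in knockout PBS and from -0.070 to -0.030 in knockout C. albicans. That of LXR targets ran from 0.099 to 0.11 in wild-type PBS and from -0.10 to -0.038 in knockout PBS. In knockout C. albicans it ran from -0.094 to -0.066. In wild-type C. albicans it was 0.14 in replicate 1 and -0.014 in replicates 2 and 3. The fatty acid genes split in the same way, with 0.098 in replicate 1 and -0.11 and -0.13 in replicates 2 and 3, against 0.21 to 0.25 in wild-type PBS.

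**Figure D5:**
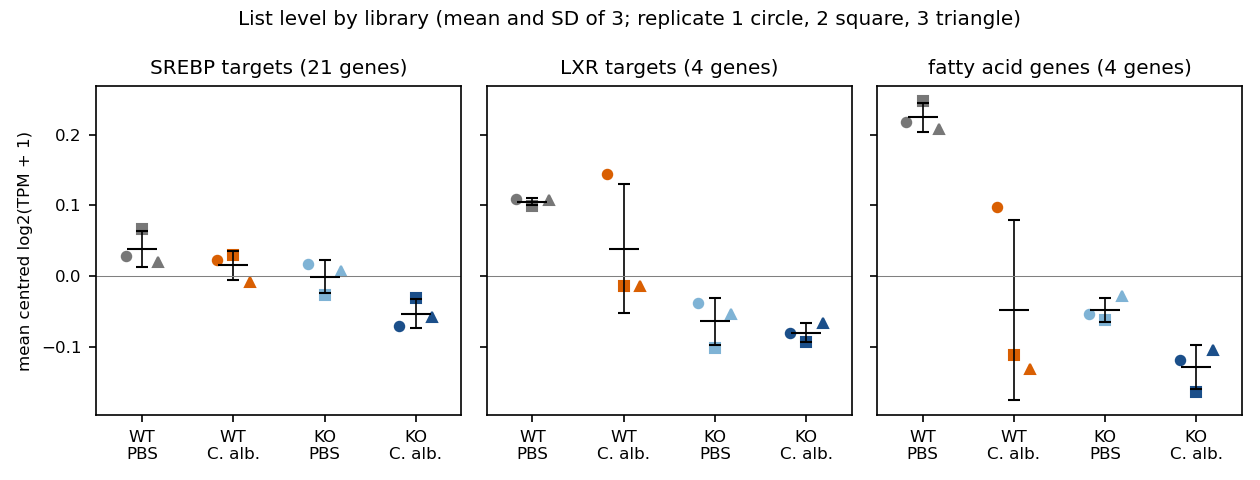
Mean over genes of log2(TPM + 1), centred on each gene's mean, for 21 SREBP targets, 4 LXR targets and 4 fatty acid genes in each of the 12 libraries, with the mean and SD of 3 as bars. Wild-type C. albicans replicate 1 (circle) lies above replicates 2 and 3 for LXR targets (0.14 against -0.014) and for fatty acid genes.

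The authors' deposited table holds 1 comparison, which its values identify as the wild-type response to C. albicans. The authors' deposited table passes 15 of the 35 members at the same threshold, of which 7 rose and 8 fell. Of these, 13 were also called by limma here, in the same direction. The authors' deposited table passes Hmgcs1 and Stard4, which limma here did not. It does not pass Mvd, Srebf1, Srebf2, Acaca, Acly and Npc1, which limma did. With median-ratio scaling, limma passed Hmgcs1 and Stard4 and did not pass Srebf1, Srebf2, Acaca, Acly and Npc1. In the authors' deposited table the log2 fold change of Insig1 is 0.48 with a standard error of 0.064 and an adjusted p of 1.34e-12. For Sqle the authors' deposited table gives 0.46 with a standard error of 0.093 and an adjusted p of 8.86e-06, and for Abca1 0.21 with a standard error of 0.039 and an adjusted p of 1.44e-06.

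A list of 15 other LXR genes, not among the 36, held LXR targets and also Rxra and Rxrb, which encode RXR, the partner of LXR. All are counted together here. Of the 15, 14 were tested, and 1 rose and 11 fell with C. albicans in wild type, against 16.1% rising and 28.3% falling over all genes. Their median log2 fold change was -0.38. Lpl, lipoprotein lipase, rose from 251 to 529 TPM (1.07 in log2, adjusted p = 3.79e-10), and Arl4c, a small GTPase, fell from 289 to 158 (-0.86, adjusted p = 8.20e-10). Pltp, the phospholipid transfer protein, and Cd5l, a secreted macrophage protein, also fell (-0.43 and -0.57). In the interaction 7 passed in the positive and 1 in the negative direction, against 7.53% and 6.33% of all genes. Lpl was at 356 TPM in knockout PBS and 436 in knockout C. albicans, an interaction of -0.78 (adjusted p = 3.40e-06). That of Arl4c was 0.72 (adjusted p = 2.57e-06). In the knockout itself 2 rose and 2 fell (3.95% and 3.15% over all genes), Lpl and Apoc1 rising and Cd5l and Arl4c falling.

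The knockout effect on the genes of this LXR list differed by treatment in its counts. With PBS, 1 was higher and 7 lower, and with C. albicans 7 were higher and 1 lower, with no test of the lists. Over all genes the shares were 6.14% and 26.2% with PBS and 12.4% and 27.5% with C. albicans. Median-ratio scaling gave 1 and 4 with PBS and 9 and 1 with C. albicans. For all 11280 genes it gave 1577 and 1608 with PBS and 2158 and 2463 with C. albicans. Rxra, the RXR partner, was at 73.2 TPM in wild-type PBS and 52.02 in knockout PBS (-0.48, adjusted p = 4.74e-05). Pltp was lower with PBS (-0.36) and higher with C. albicans (0.14, adjusted p = 0.00675), the latter not with the length and GC trend removed (-0.031, adjusted p = 0.508). Lpl was higher with PBS (0.50) and lower with C. albicans (-0.28). Apoc1, a minor apolipoprotein, was at 2.46 TPM in wild-type PBS and 0.472 in knockout PBS, near the limit of 1 TPM used for testing.

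Of 25 other SREBP and lipid synthesis genes, 22 were tested, and 2 rose and 9 fell with C. albicans in wild type, where 16.1% of all genes rose and 28.3% fell. Lpin1, a phosphatidic acid phosphatase, fell from 8.11 to 4.43 TPM (-0.75, adjusted p = 9.85e-05). Me1, malic enzyme, which supplies NADPH for fatty acid synthesis, rose from 0.755 to 2.63 TPM (1.04, adjusted p = 1.95e-04), and its interaction was -0.94 (adjusted p = 0.0145). In the knockout 5 had an unadjusted p under 0.05 and 1 passed, Elovl1, a fatty acid elongase, which fell by 0.20 (adjusted p = 0.0362). Of all 11280 genes, 2657 had such an unadjusted p in that comparison, and 3.95% rose and 3.15% fell. With PBS 2 were higher and 4 lower in the knockout (6.14% and 26.2% over all genes). Median-ratio scaling turned this to 4 higher and 0 lower, against 1577 and 1608 of all 11280 genes. Among the 4 lower was Mbtps1, the site-1 protease that cuts SREBP (-0.20, adjusted p = 0.0114), lost with that scaling (adjusted p = 0.135). With C. albicans 4 were higher and 5 lower (6 and 2 with median-ratio scaling, 12.4% and 27.5% over all genes), including Slc25a1, the mitochondrial citrate carrier, higher by 0.23 (adjusted p = 4.69e-04) but not with the length and GC trend removed (adjusted p = 0.479).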

How the data were processed

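Polyadenylated RNA of 12 libraries, 3 in each of 4 groups set by the genotype and treatment labels, was analysed. The submitters' processing notes name DESeq2 1.34.0, STAR 2.7.5a, cutadapt 2.6, CASAVA 1.8 and the mm10 build. How reads were counted, with which strand setting and which annotation was not given in the sources used here. Values deposited by the authors are TPM for 25230 genes, and each library sums to 1000000. Per the file headers the authors also deposited, for 1 comparison, a mean normalised signal over libraries, a log2 fold change with standard error, the Wald statistic (a score), and raw and adjusted p-values. That comparison was identified from the values: the log2 ratio of C. albicans over PBS in wild type differed from the deposited one by a median of 0.000852 over 8242 genes, and the next closest pair of groups by 0.127.

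Whole reads were recovered from TPM and the mean signal (100% of 124662 nonzero values under 1000 reads lay within 0.01 of a whole number) and used for depth and for simulated data only. Recovered reads do not include molecular identifiers. The 28 genes without a symbol held at most 0.00145% of reads and were not tested.

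limma 3.58.1 in R 4.3.3 was fitted to log2(TPM + 1) with 1 mean per group, a variance trend and no replicate block, over the 11280 genes that reached 1 TPM in 3 or more libraries (8 residual degrees of freedom). The log2(TPM + 1) scale understates changes of low genes. Tests were two-sided, and p-values were adjusted over all genes tested (Benjamini-Hochberg), with a threshold of 0.05. The fit was tested on simulated data. Alternatives were a pseudocount of 0.1, no filter, a filter of 5 TPM, median-ratio and upper-quartile scaling, no variance trend, a replicate block, removal of a trend with gene length and GC content, a fit of only the groups compared, and each library left out.

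The 36 genes and all lists were chosen with earlier results of these data known. Values of every library are given for up to 3 genes of each role with the smallest adjusted p in each comparison, and for Scd2, added after its values were seen. Of genes outside the 36, up to 4 of a list per comparison could be named, and those printed were a choice among these made with their values known. Gene and promoter positions are from RefSeq, GRCm38.p6, the assembly that mm10 names. Promoters of Stard4, Abcg1, Fdps, Npc1, Scd2, Fdft1, Scd1 and Sqle were not used here.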

Additional observations from a re-analysis of the deposited data

Results flagged for a closer look

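For 4 members the response to C. albicans differed between the genotypes by the interaction term of limma. The knockout's response less that of wild type was -0.38 in log2 for Sqle, -0.21 for Msmo1, 0.33 for Dhcr7 and 0.12 for Npc2. Sqle went from 15.5 ± 1.13 to 20.1 ± 1.12 TPM (SD, n = 3) in wild type and from 16.6 ± 0.709 to 16.3 ± 0.963 in the knockout. Msmo1 went from 49.3 ± 0.457 to 56.3 ± 1.61 and from 55.03 ± 1.72 to 54.2 ± 1.14, so the knockout started near the level that wild type reached. Dhcr7 went from 11.7 ± 0.535 to 8.54 ± 0.395 and from 10.3 ± 0.426 to 9.71 ± 0.876, and Npc2 from 1424 ± 4.49 to 1263 ± 33.6 and from 1466 ± 16.7 to 1413 ± 11.8. The call held in 18 of 20 alternatives for Sqle and 16 of 20 for Msmo1, and in 7 of 20 for each of Dhcr7 and Npc2.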

How the results depend on the processing

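Over all tested members and comparisons, 3428 values under an alternative stayed on their side of the threshold, with their sign where called, 139 lost the threshold and 51 gained it. Values that did not pass also changed sign in places, which is not counted. Sign changed for 2 values that passed before or under the alternative, with the length and GC trend removed, Srebf2 in the response of wild type (0.030) and Abcg1 in the knockout effect with PBS (0.11, adjusted p = 0.0277), and the cause was not tested. The number of members called for the response in the knockout, 1, became 3 with the replicate block, 2 without the length and GC trend and 4 with only the groups compared, and 1 to 5 with 1 library left out. For the interaction, 4 became 2 with no filter and with median-ratio scaling, and 1 after removal of the length and GC trend. It became 1 to 9 with 1 library left out, 9 being without wild-type C. albicans replicate 1. Without that library the interaction passed for 1473 genes in the positive and 1059 in the negative direction, against 849 and 714 with it. Leaving out 1 library gave 15 to 20 for the response in wild type, 9 to 14 for the knockout effect with PBS and 13 to 18 with C. albicans.

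The LXR median minus the SREBP median in the response of wild type was -0.066. Removing the length and GC trend made it 0.022, and it became -0.14 with an LXR list widened by Fasn, Scd2 and Nr1h3, and ran from -0.15 to -0.0092 with 1 library left out. With 1 library left out it ran from -0.053 to 0.043 for the knockout effect with PBS, where the sign depended on the library, from 0.0099 to 0.13 with C. albicans, and from 0.045 to 0.16 for the interaction. Replicate numbers did not pair the libraries: deviations of same-numbered libraries correlated by -0.088 to 0.087, none of 18 over 0.1. The replicate block, beside the 3 calls above, moved no other count by over 1.5 times, though with it the calls of Insig1 and Scap with PBS and of Dhcr7 in the interaction did not pass. Among tested members Idi1, Hsd17b7, Stard4 and Tm7sf2 had the fewest reads, down to 91 per library, which limits what can be detected there.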

Other observations

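Genes of oxysterol synthesis, cholesterol ester storage and lipid uptake lie next to the pathways above. Of 20 such genes, 19 were tested, and 7 rose and 9 fell with C. albicans in wild type, 2 rose and 3 fell in the knockout, and 9 passed in the interaction. Over all genes 16.1% rose and 28.3% fell in wild type, and 3.95% and 3.15% in the knockout. The interaction passed for 7.53% of all genes in the positive and 6.33% in the negative direction. Ch25h, which makes the oxysterol 25-hydroxycholesterol, rose from 0.804 to 4.74 TPM in wild type (1.69 in log2, adjusted p = 7.67e-06 by limma). In the knockout it rose from 0.553 to 1.96 TPM (0.94, adjusted p = 0.00518). With PBS its means lay under 1 TPM, so it was tested through the C. albicans libraries, where it was high. Acsl1, a fatty acyl-CoA synthetase, averaged 54.8 TPM in wild-type PBS, 118 in wild-type C. albicans, 45.1 in knockout PBS and 49.2 in knockout C. albicans, with an interaction of -0.93 (adjusted p = 0.00874). Cd36, a scavenger receptor, averaged 491, 620.4, 574 and 548 TPM in the same order (interaction -0.41, adjusted p = 9.28e-04). Lipa, the lysosomal acid lipase that frees cholesterol from its esters, rose from 926 to 1073 TPM in wild type (0.21, adjusted p = 1.32e-05), with an interaction of -0.21 (adjusted p = 0.00121).

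With PBS, Soat1, which esterifies cholesterol, was lower in the knockout (279 against 222 TPM, -0.33 in log2, adjusted p = 0.00102). Osbpl8, an oxysterol binding protein homolog, was lower in the knockout with PBS (-0.42, adjusted p = 1.73e-04) and with C. albicans (-0.60, adjusted p = 5.54e-06). In all, 2 were higher and 5 lower in the knockout with PBS, and 5 higher and 7 lower with C. albicans, against 6.14% and 26.2% and then 12.4% and 27.5% of all genes. Median-ratio scaling gave 7 higher and 3 lower with PBS, and 6 and 6 with C. albicans. For all 11280 genes it gave 1577 and 1608 with PBS, and 2158 and 2463 with C. albicans.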
